A study of Mus musculus with 6 samples.

Results

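Semaphorins, plexins, neuropilins, ephrins, Eph receptors, Slit and Robo proteins, netrins and Unc5 receptors were described in 3T3-L1 cells, a cloned line of mouse embryonic fibroblasts that can form fat cells in culture. The members were all protein-coding genes of GENCODE M21 whose symbols belong to these 9 families, which gave 68 of the 54752 genes in the tables. The study sequenced total RNA from 3 preadipocyte and 3 adipocyte libraries, each numbered 1 to 3. All 6 samples carry the same strain label (C57BL/6J), the same tissue label (embryo), no treatment and the same medium text, in which the abbreviation DMI is not spelled out, so what each state received and on which day it was harvested is not given in the sources used here. The source name reads Adipocyte for the preadipocytes as well, so titles and cell type labels set the groups. Whether replicates came from separate cultures is not stated, and the p-values may then reflect technical spread alone.

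Guidance proteins were first described as cues that steer growing axons, and they act in most tissues on cell shape, adhesion, migration and vessel growth. Semaphorins signal through plexins, and most secreted semaphorins (class 3) also need a neuropilin as co-receptor. Ephrins are membrane-bound ligands of the Eph receptor tyrosine kinases, Slit proteins bind Robo receptors, and netrins bind Dcc, neogenin and the Unc5 receptors. In fat, semaphorin and netrin signals have been studied for their part in macrophage retention and inflammation, and a fragment of Slit2 for its release by thermogenic fat cells.

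The labels matched the defining markers. Summed over 7 adipocyte markers, TPM (the level of a transcript scaled by its length and by the library) ran from 91.99 to 98.01 in preadipocyte and from 19172 to 21580 in adipocyte libraries. The 7 preadipocyte and fibroblast markers summed to 6411 to 7486 TPM and 289.9 to 369.9 TPM in the same order, and all 7 were lower in adipocytes. Endothelial markers summed to at most 1.24 TPM in any library, with Erg and Tie1 at 0 counts throughout. The 6 macrophage markers summed to 1.74 to 2.30 TPM in preadipocytes and 1.15 to 1.82 TPM in adipocytes, with Adgre1 and Itgam at 0 counts, and of the 2 tested Csf1r was lower (117 and 10 counts per state) and Cd68 was not called. The 8 neuron markers summed to 10.72 to 12.79 TPM and 3.02 to 4.31 TPM, with Rbfox3, Elavl4 and Nefl at 0 counts. Of the 3 neuron markers tested, Map2 (1574 and 33 counts) and Syn1 were lower and Snap25 (0 and 257 counts) was higher. The 6 glial markers summed to 8.87 to 9.68 TPM and 7.10 to 9.06 TPM, with Sox10 at 0 counts, and 2 of 4 tested were higher and 1 lower. Smooth muscle and pericyte markers, led by Acta2 in preadipocytes and by Myh11 in adipocytes, summed to 193.9 to 231.7 TPM in preadipocytes and 10.62 to 12.02 TPM in adipocytes. The part of these lists in the results was not tested. In RNA from whole cultures, fewer cells of a type and less RNA per cell cannot be told apart. Libraries held between 22496486 and 26314076 expected counts.

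Most of the measurable guidance genes were lower in adipocytes, and a small set was higher, namely 5 semaphorins, 2 plexins and 1 netrin. Of these, Plxnd1 and Ntn3 were not called higher under every scaling, and Sema4g was not called with limma on log2(TPM + 1). Of the 68 members, 45 had enough counts to be tested, 34 of them were lower and 8 higher at a Benjamini-Hochberg adjusted p of 0.05 (edgeR, quasi-likelihood), and 3 were not called. Among all 14726 tested genes, 37.9% were lower, 35.7% were higher and 73.5% were called in either direction. Lower by at least 2-fold were 29 members (background 21.8%), and 5 were higher by at least 2-fold (background 19.3%). The libraries of the 2 states did not overlap in CPM (counts scaled to a common library size with TMM factors) for 42 of the 45, against 76.5% of all tested genes. The median log2 fold change was -1.68 over the tested members and -0.06 over all tested genes. By CPM with TMM factors, 39 of the 45 reached the count limit in both states, and these were 30 lower, 6 higher and 3 without a call. Sema4a and Plxnb3 passed the limit in adipocytes alone, and Sema5b, Plxnb1, Epha4 and Robo1 in preadipocytes alone, so a difference in those 6 follows from how they were kept. All 6 are also in the 2-fold counts above, 2 among the higher and 4 among the lower members. The filter itself ran before the TMM factors. There Plxna4, with 9 counts in adipocyte library 2, also fell short of the limit in adipocytes. The same limit thus holds for Plxna4, which is in the lower 2-fold count and among the 30 lower members. The background shares were not split in this way. Higher genes were 48.5% of all calls with TMM factors and 34.3% where library totals were the sole scaling. With limma on log2(TPM + 1), where unit and test both differ, they were 28.2%. Summed over the 68 members, the level was 1435 ± 60.8 TPM in preadipocytes and 433.8 ± 7.59 TPM in adipocytes (SD, n = 3).

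**Figure D1:**
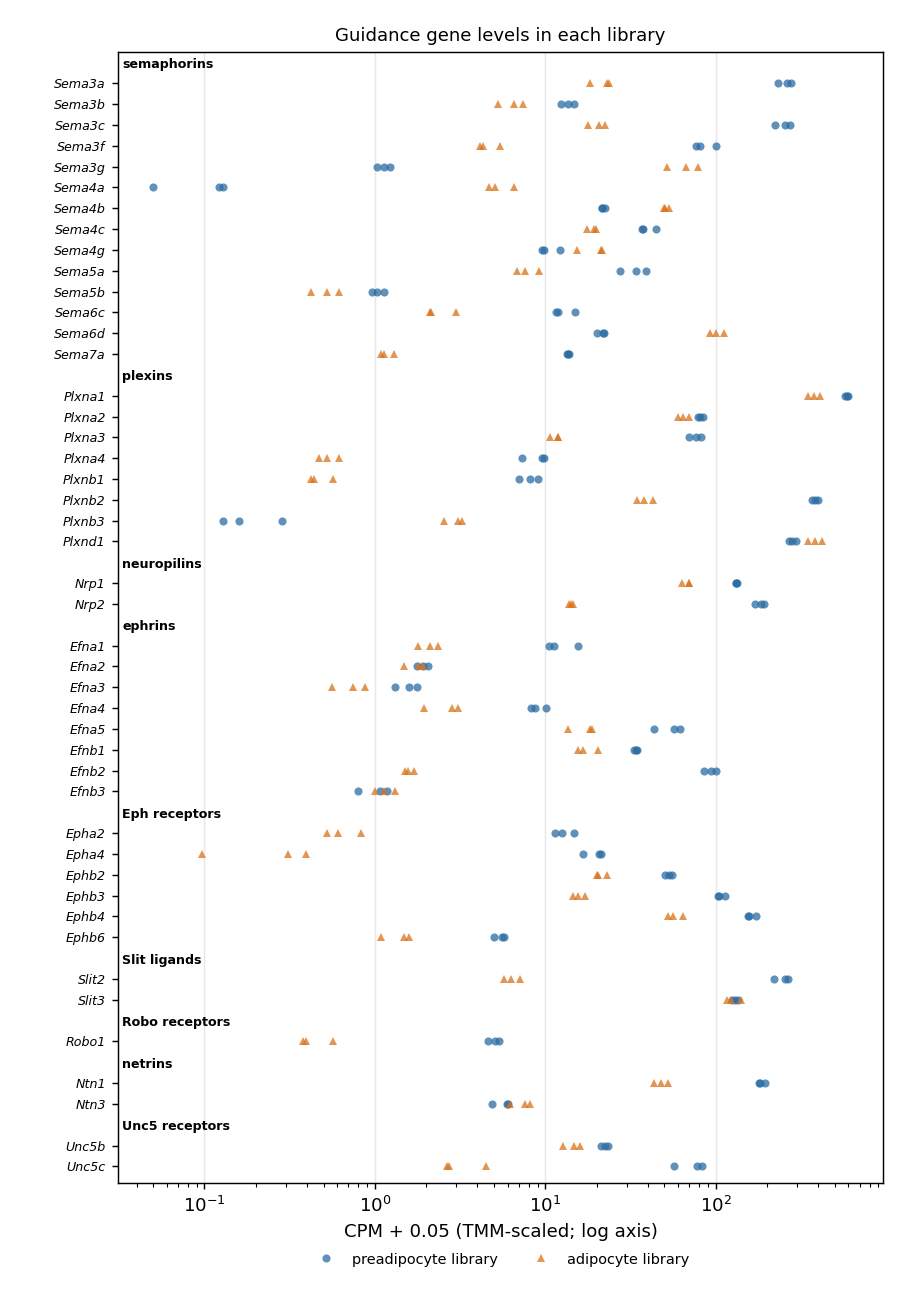
Level of each tested guidance gene in each library, as CPM + 0.05 on a log axis, with circles for the 3 preadipocyte and triangles for the 3 adipocyte libraries. Efna2, Efnb3 and Slit3 are the members whose groups overlap.

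Promoter sequences are shown for the members with the largest changes that have 1 listed start, namely Sema3g and Plxnb3 among the rises and Epha4 and Efnb2 among the falls. RefSeq entries on GRCm38.p6 matched 59 of the 68 members, each running from 250 bases before to 50 bases after a gene start. Sequences read 5′ to 3′ on the gene's strand, and capitals mark matches on either strand to 6 short motifs. The first is the nuclear receptor half-site, written AGGTCA. The C/EBP core is written as TTGCNNAA, with any base at N. For the TEAD core the letters searched were GGAATG, and for the GC box, bound by Sp-type factors, they were GGGCGG. The E-box searched was CACGTG, and the sequence used for the TATA box was TATAAA.
Sema3g, chr14:31217623-31217922, plus strand: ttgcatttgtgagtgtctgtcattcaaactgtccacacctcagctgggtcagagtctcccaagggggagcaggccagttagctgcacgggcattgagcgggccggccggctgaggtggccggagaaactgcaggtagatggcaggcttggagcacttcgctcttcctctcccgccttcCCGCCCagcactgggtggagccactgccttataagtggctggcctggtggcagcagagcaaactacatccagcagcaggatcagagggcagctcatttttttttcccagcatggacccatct
Plxnb3, chrX:73756853-73757152, plus strand: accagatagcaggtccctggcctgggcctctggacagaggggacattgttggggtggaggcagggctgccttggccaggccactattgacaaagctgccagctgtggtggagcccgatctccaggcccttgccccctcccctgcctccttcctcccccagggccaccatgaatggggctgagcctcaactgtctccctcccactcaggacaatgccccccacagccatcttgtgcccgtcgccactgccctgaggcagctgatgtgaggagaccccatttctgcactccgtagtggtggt
Epha4, chr1:77515039-77515338, minus strand: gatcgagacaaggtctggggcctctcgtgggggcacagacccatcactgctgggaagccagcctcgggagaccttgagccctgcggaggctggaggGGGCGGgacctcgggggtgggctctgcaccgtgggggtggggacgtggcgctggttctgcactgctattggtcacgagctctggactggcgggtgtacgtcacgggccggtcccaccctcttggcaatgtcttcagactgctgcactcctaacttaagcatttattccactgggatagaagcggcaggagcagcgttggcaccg
Efnb2, chr8:8661193-8661492, minus strand: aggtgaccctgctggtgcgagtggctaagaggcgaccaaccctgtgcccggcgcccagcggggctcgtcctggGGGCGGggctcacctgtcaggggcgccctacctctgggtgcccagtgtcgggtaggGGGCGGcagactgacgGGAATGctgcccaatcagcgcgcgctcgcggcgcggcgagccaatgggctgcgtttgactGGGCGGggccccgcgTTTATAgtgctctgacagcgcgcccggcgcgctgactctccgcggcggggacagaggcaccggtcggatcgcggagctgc
The Sema3g and Epha4 windows each held 1 match, a GC box, and the Plxnb3 window held none. The Efnb2 window held 5, of which 3 were GC boxes, 1 the TEAD core and 1 the TATA box on the opposite strand.

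Motif matches were then counted in any listed promoter of the called members, 8 higher and 29 lower ones with an entry, beside all 32851 promoters of the table. Members with several listed starts had more than 1 window to match in. The nuclear receptor half-site AGGTCA was present for 2 of 8 higher and 4 of 29 lower members, and in 16.3% of all promoters. The direct repeat of this half-site with 1 base between its copies was present for none of the called members and in 13 promoters of the table. A GC box was found for 7 of 8 higher and 22 of 29 lower members, and in 35.7% of all promoters. The C/EBP core TTGCNNAA was found for 2 of 8 and 1 of 29, against 10.8% of all promoters. Matching GGAATG were 3 of 8 and 3 of 29 (14.7% of all), CACGTG 2 of 8 and 0 of 29 (7.15% of all), and TATAAA 0 of 8 and 2 of 29 (13.6% of all). These are letter matches in a short window and say nothing of factor binding.

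Secreted class 3 semaphorins made up 79.9% ± 1.40 of semaphorin TPM in preadipocytes and 37.2% ± 1.33 in adipocytes (SD, n = 3). The class summed to 284.8 ± 23.8 and 37.1 ± 4.96 TPM (SD, n = 3). Of the 7 genes, 4 fell (Sema3a, Sema3b, Sema3c and Sema3f), 1 rose (Sema3g), and Sema3d and Sema3e had too few counts to be tested. Sema3a (ENSMUSG00000028883.17, chr5:13125414-13602565, GRCm38), the founding repulsive cue of the class, which binds Nrp1, measured 231, 276 and 262 CPM in preadipocyte and 18.1, 23.0 and 23.7 CPM in adipocyte libraries. It was 11.9-fold lower in adipocytes (log2 fold change -3.57, SE 0.13, adjusted p = 2.56e-08). Sema3c measured 224, 273 and 256 CPM in preadipocyte and 17.7, 22.2 and 20.6 CPM in adipocyte libraries, and was 12.4-fold lower (adjusted p = 1.65e-08). In both genes preadipocyte library 1 was the lowest of its group and every adipocyte library lay far below every preadipocyte library.

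Sema3f, which acts mainly through Nrp2, measured 99.6, 76.7 and 80.2 CPM in preadipocyte and 5.36, 4.25 and 4.11 CPM in adipocyte libraries and fell by 4.22 on the log2 scale (SE 0.15, adjusted p = 2.59e-08). Sema3b measured 14.6, 12.2 and 13.5 CPM in preadipocyte and 7.31, 6.49 and 5.23 CPM in adipocyte libraries and fell by 1.08 (SE 0.15, adjusted p = 1.37e-04). Here the groups were also separate, but the difference was only 2.12-fold. Sema3b and Sema3f lie 72.3 kb apart on chromosome 9, and both fell. Chromosome 5 holds Sema3a between Sema3d and Sema3e, within 536.5 kb of the first and 422.7 kb of the second. Those neighbours had 13 and 2 counts over the 3 preadipocyte libraries and none over the adipocyte libraries, where 0 counts allow up to 0.0443 CPM.

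Sema3g went the other way. This secreted semaphorin (ENSMUSG00000021904.6, chr14:31217860-31230352), which signals with Nrp2, measured 0.979, 1.19 and 1.09 CPM in preadipocyte and 66.6, 51.5 and 78.6 CPM in adipocyte libraries. The fitted rise was 60.2-fold (log2 fold change 5.91, SE 0.20, adjusted p = 2.13e-08). All adipocyte libraries stood far above all preadipocyte libraries, with adipocyte library 2 the lowest of its group. In share of class 3 TPM, Sema3g went from 0.160% ± 0.0090 to 51.3% ± 5.26, while Sema3a went from 40.5% ± 0.76 to 18.8% ± 3.06 (SD, n = 3). The remaining share in preadipocytes was mostly Sema3c, at 30.6% ± 1.95, and Sema3f, at 24.8% ± 2.39 (SD, n = 3).

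Membrane-bound class 4 semaphorins, which signal mainly through B-type plexins and Plxnd1, did not share a direction. Sema4a, Sema4b and Sema4g rose, Sema4c fell, and Sema4d and Sema4f were too low to test. Sema4a (ENSMUSG00000028064.17, chr3:88435959-88461182), known for its roles in T cells and in the retina, measured 0.0783, 0 and 0.0726 CPM in preadipocyte and 6.49, 4.998 and 4.63 CPM in adipocyte libraries, from 4 counts in all preadipocyte libraries together. Its fitted log2 fold change of 6.58 (SE 0.40, adjusted p = 7.16e-07) depends on those 4 counts and on the prior count of the tool. It was 6.06 without preadipocyte library 2 and 6.97 without preadipocyte library 1. Sema4a passed the count limit in adipocytes alone. Sema4b measured 22.2, 21.4 and 21.6 CPM in preadipocyte and 50.4, 53.1 and 49.8 CPM in adipocyte libraries, a 2.35-fold rise (adjusted p = 6.31e-07). The groups were tight and apart. Sema4g measured 12.2, 9.56 and 9.73 CPM in preadipocyte and 21.2, 15.4 and 21.4 CPM in adipocyte libraries and rose by 0.88 on the log2 scale (SE 0.16, adjusted p = 8.62e-04), but its groups overlapped in TPM and the rise was not called with limma on log2(TPM + 1) (0.31, adjusted p = 0.086). Sema4c measured 44.7, 36.9 and 37.5 CPM in preadipocyte and 19.9, 17.5 and 19.2 CPM in adipocyte libraries and was 2.10-fold lower (adjusted p = 1.45e-05). Sema4c shares 7.27% of its exon bases with a transcript on the opposite strand, D430040D24Rik, and reads of the pair cannot be told apart without a statement on strand. The summed class 4 level was 39.5 ± 1.70 TPM in preadipocytes and 35.9 ± 2.33 TPM in adipocytes (SD, n = 3). TPM carries no TMM factors, so this sum need not follow the calls made on counts.

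In class 6, whose members bind A-type plexins, Sema6d rose and Sema6c fell. Sema6d (ENSMUSG00000027200.17, chr2:124089969-124667770) measured 20.1, 22.1 and 21.8 CPM in preadipocyte and 92.9, 100.1 and 112 CPM in adipocyte libraries, a 4.76-fold rise (SE 0.094 on the log2 scale, adjusted p = 6.88e-08). Sema6c measured 14.9, 11.8 and 11.5 CPM in preadipocyte and 2.94, 2.06 and 2.08 CPM in adipocyte libraries and was 5.38-fold lower (adjusted p = 2.91e-06). Sema6d, at 23.3 ± 2.70 TPM, was the most abundant semaphorin in adipocytes, followed by Sema3g at 19.2 ± 4.22 TPM and Sema4b at 18.4 ± 0.80 TPM (SD, n = 3), and neighbours in this order lay within the spread of Sema3g. Sema6a had 14 preadipocyte counts and none in adipocytes, and Sema6b had 14 and 12. Sema5a, a semaphorin with thrombospondin repeats, measured 27.2, 38.8 and 33.9 CPM in preadipocyte and 6.79, 7.57 and 9.17 CPM in adipocyte libraries and was 4.25-fold lower (adjusted p = 3.54e-06). The related Sema5b was at most 1.09 CPM in any library and passed the count limit in preadipocytes alone. Its call (log2 fold change -1.06, adjusted p = 0.0051) was lost with an effective length offset (-0.46, adjusted p = 0.32). The call was also lost when limma was run on log2(TPM + 1) (-0.23, adjusted p = 0.069). Sema7a, which is anchored to the membrane by a lipid and binds Plxnc1 and integrins, measured 13.5, 13.7 and 13.4 CPM in preadipocyte and 1.25, 1.07 and 1.04 CPM in adipocyte libraries and fell by 3.59 (SE 0.13, adjusted p = 3.57e-08). Plxnc1 itself had 17 counts over the preadipocyte and 2 over the adipocyte libraries and was not tested.

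Plexins, the semaphorin receptors, were the most abundant family in both states, with 456.4 ± 19.7 TPM in preadipocytes and 202.2 ± 12.9 TPM in adipocytes (SD, n = 3). Of 8 tested plexins, 6 fell and 2 were higher, beside 37.9% lower and 35.7% higher among all tested genes. In preadipocytes the level was shared by Plxna1 (144.3 ± 6.46 TPM), Plxnd1 (131.3 ± 17.2 TPM) and Plxnb2 (128.1 ± 2.34 TPM) (SD, n = 3). Plxnd1 overlapped both of the others, while Plxna1 lay above Plxnb2 in all 3 libraries. In adipocytes Plxnd1 (119.0 ± 12.4 TPM) stood above Plxna1 (62.6 ± 4.82 TPM), and every other plexin was at 8.59 TPM or less on average. Plxna1 and Plxnd1 together made up 60.4% ± 1.48 of plexin TPM in preadipocytes and 89.8% ± 0.51 in adipocytes (SD, n = 3).

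Plxnb2 (ENSMUSG00000036606.17, chr15:89155549-89180788), a receptor of class 4 semaphorins, carried the largest fall in level within the family. It measured 398, 367 and 380.1 CPM in preadipocyte and 42.8, 38.0 and 34.2 CPM in adipocyte libraries, 9.95-fold lower in adipocytes (log2 fold change -3.32, SE 0.10, adjusted p = 1.22e-08). Plxnb1 measured 9.002, 6.95 and 8.06 CPM in preadipocyte and 0.389, 0.374 and 0.519 CPM in adipocyte libraries and fell by 4.21 (SE 0.21, adjusted p = 1.73e-07). The third member of the B type, Plxnb3, a receptor of Sema5a, rose. It measured 0.235, 0.0790 and 0.109 CPM in preadipocyte and 3.20, 3.04 and 2.51 CPM in adipocyte libraries, with a fitted log2 fold change of 4.33 (SE 0.33, adjusted p = 2.88e-06). Its level in adipocytes was still only 1.10 ± 0.13 TPM, below the 8.59 ± 0.63 TPM that remained of Plxnb2 (SD, n = 3). Plxnb1 passed the count limit in preadipocytes alone and Plxnb3 in adipocytes alone.

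All 4 A-type plexins, which serve class 3 and class 6 semaphorins, were lower in adipocytes. Plxna3 measured 81.6, 70.0 and 76.8 CPM in preadipocyte and 11.8, 10.6 and 11.9 CPM in adipocyte libraries and was 6.66-fold lower (adjusted p = 2.34e-08). Plxna4 measured 7.24, 9.48 and 9.73 CPM in preadipocyte and 0.476, 0.420 and 0.562 CPM in adipocyte libraries and was 17.9-fold lower (adjusted p = 2.11e-07). Before TMM factors it fell short of the count limit in adipocytes, so this difference follows from how it was kept. Plxna1 measured 596, 576 and 591 CPM in preadipocyte and 409.5, 376 and 346 CPM in adipocyte libraries, a fall of 0.64 on the log2 scale (SE 0.083, adjusted p = 1.11e-04), and 10.7% of its exon bases are shared with the opposite-strand transcript Gm26811. Plxna2 measured 78.2, 84.1 and 80.4 CPM in preadipocyte and 60.1, 69.8 and 64.5 CPM in adipocyte libraries and fell by 0.32 (SE 0.080, adjusted p = 0.0059). Plxnd1, a receptor of Sema3e and other semaphorins on endothelium, measured 296, 269.8 and 279 CPM in preadipocyte and 422, 381 and 347 CPM in adipocyte libraries. It was called higher at 0.45 on the log2 scale (SE 0.091, adjusted p = 0.0019), but not with total counts (0.12, adjusted p = 0.22), and its sign turned with limma on log2(TPM + 1) (-0.14, adjusted p = 0.30).

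Both neuropilins, the co-receptors of class 3 semaphorins and of vascular endothelial growth factors, fell. Nrp2 (ENSMUSG00000025969.15, chr1:62703285-62818695) measured 169, 185 and 191 CPM in preadipocyte and 14.1, 13.7 and 14.4 CPM in adipocyte libraries, 12.9-fold lower in adipocytes (log2 fold change -3.69, SE 0.084, adjusted p = 3.13e-09). Nrp1 measured 131, 131 and 133 CPM in preadipocyte and 63.2, 69.7 and 69.7 CPM in adipocyte libraries, a fall of 0.96 on the log2 scale (SE 0.071, adjusted p = 2.69e-06). In share of neuropilin TPM, Nrp2 went from 42.7% ± 1.34 to 10.1% ± 0.59 (SD, n = 3), and no library of one state reached the range of the other.

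**Figure D2:**
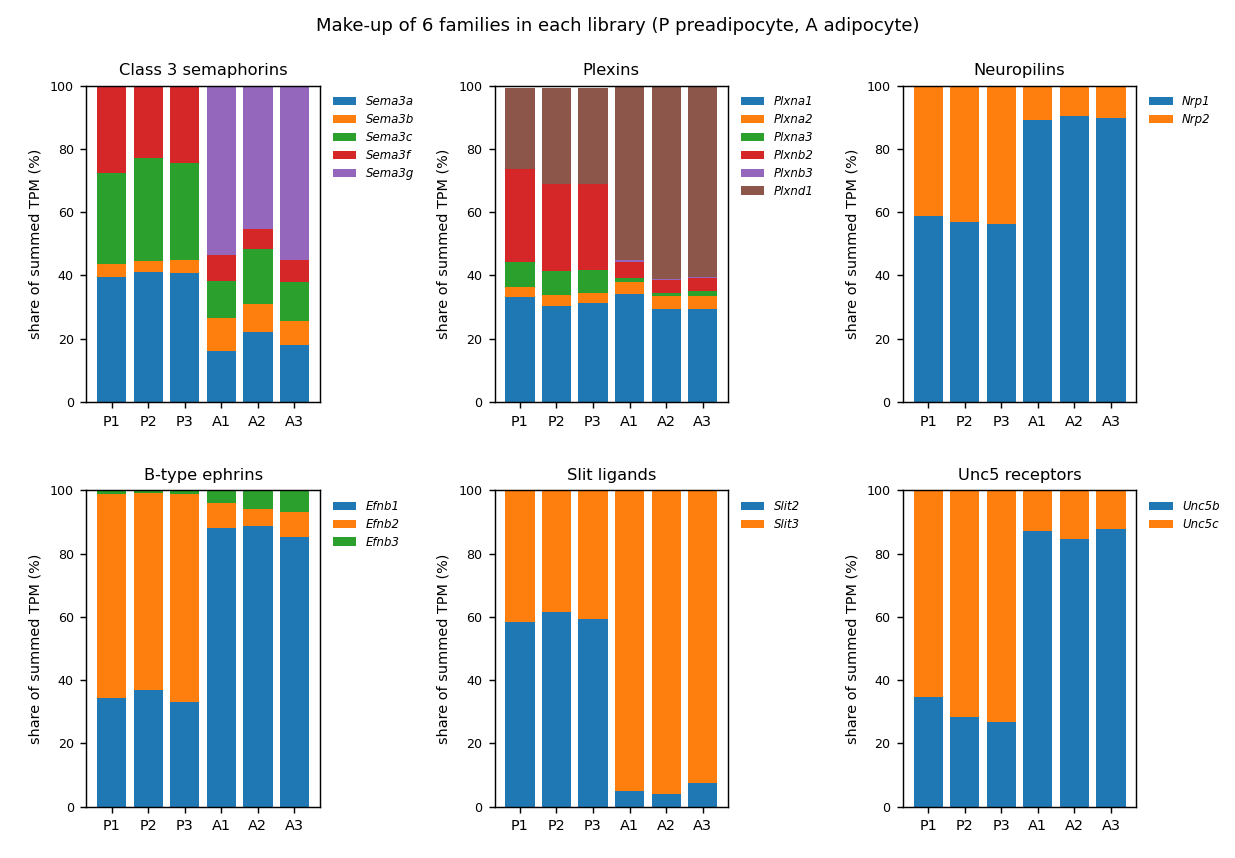
Share of each member in the summed TPM of its family, in percent, for the 3 preadipocyte (P) and 3 adipocyte (A) libraries; members at under 0.5% in both states are left out. In adipocytes, Sema3g holds 51.3% of class 3 semaphorin TPM on average, Slit3 holds 94.6% of Slit TPM and Nrp1 holds 89.9% of neuropilin TPM.

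Ephrins of both types fell. Of 8 genes, 6 were lower (37.9% of all tested genes), and Efna2 and Efnb3 were not called. The summed level was 126.7 ± 6.13 TPM in preadipocytes and 21.5 ± 0.90 TPM in adipocytes (SD, n = 3). Efnb2 (ENSMUSG00000001300.16, chr8:8617434-8661242), the transmembrane ligand of Ephb4 that marks arterial endothelium, measured 85.3, 94.2 and 99.6 CPM in preadipocyte and 1.51, 1.45 and 1.64 CPM in adipocyte libraries. It was 60.3-fold lower (log2 fold change -5.92, SE 0.12, adjusted p = 1.98e-09), and both groups were narrow. Efnb1 measured 33.0, 34.1 and 34.3 CPM in preadipocyte and 20.2, 16.6 and 15.4 CPM in adipocyte libraries and fell by 0.96 (SE 0.11, adjusted p = 4.52e-05). The make-up of the B type also differed, with Efnb2 at 64.3% ± 1.76 of its TPM in preadipocytes and 6.93% ± 1.53 in adipocytes, and Efnb1 at 34.7% ± 1.89 and 87.4% ± 1.82 (SD, n = 3). Efnb3 measured 1.14, 0.751 and 1.02 CPM in preadipocyte and 0.951, 1.07 and 1.25 CPM in adipocyte libraries, with overlapping groups (log2 fold change 0.17, 95% interval -0.39 to 0.74, adjusted p = 0.54), and its sign turned with total counts (-0.15) and limma on log2(TPM + 1) (-0.12).

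Among the A-type ephrins, which are anchored to the membrane by a lipid, Efna5 was the most abundant. It measured 43.3, 61.7 and 57.1 CPM in preadipocyte and 13.5, 18.8 and 18.3 CPM in adipocyte libraries and was 3.21-fold lower (adjusted p = 1.74e-05). Efna1 measured 15.6, 10.4 and 11.1 CPM in preadipocyte and 2.29, 2.06 and 1.73 CPM in adipocyte libraries and was 6.09-fold lower (adjusted p = 3.47e-06). In these genes library 1 of the preadipocytes stood apart from the other two, as the lowest for Efna5 and the highest for Efna1, without touching the adipocyte range. Efna4 measured 10.1, 8.65 and 8.17 CPM in preadipocyte and 2.77, 3.04 and 1.90 CPM in adipocyte libraries and fell by 1.80 (SE 0.19, adjusted p = 2.36e-05). Efna3 measured 1.72, 1.54 and 1.27 CPM in preadipocyte and 0.692, 0.514 and 0.822 CPM in adipocyte libraries and fell by 1.15 (SE 0.25, adjusted p = 0.0030), a call lost with an effective length offset (-0.85, adjusted p = 0.059). Efna1, Efna3 and Efna4 lie side by side on chromosome 3 between 89271733 and 89338028 (GRCm38), with gaps of 32.8 and 10.4 kb, and all 3 were lower. Efna3 and Efna4 share 14.1% and 10.5% of their exon bases with antisense transcripts. Efna2 measured 1.72, 1.86 and 1.997 CPM in preadipocyte and 1.43, 1.78 and 1.86 CPM in adipocyte libraries, so that the groups overlapped (log2 fold change -0.14, 95% interval -0.57 to 0.29, adjusted p = 0.52), though it was called lower with limma on log2(TPM + 1) (-0.39, adjusted p = 0.0093).

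Every Eph receptor that could be tested, 6 of 14, was lower in adipocytes, beside 37.9% of all tested genes. Epha4 entered the test through preadipocytes alone, so its direction follows from how it was kept. The EphA receptors, which bind mostly A-type ephrins, were low in preadipocytes and lower in adipocytes, at 13.3 ± 0.70 and 0.447 ± 0.112 TPM in sum over 9 genes (SD, n = 3). Epha4 (ENSMUSG00000026235.14, chr1:77367185-77515088), which binds ephrins of both types, measured 16.7, 20.7 and 21.1 CPM in preadipocyte and 0.259, 0.0467 and 0.346 CPM in adipocyte libraries. Its fitted fall was 6.43 on the log2 scale (SE 0.30, adjusted p = 1.33e-07), and adipocyte library 2 held the lowest value. Epha2 measured 14.7, 11.3 and 12.5 CPM in preadipocyte and 0.778, 0.561 and 0.476 CPM in adipocyte libraries and was 21.02-fold lower (adjusted p = 1.29e-07). The other 7 EphA genes had 18 counts or fewer over the preadipocyte libraries, and Epha3 and Epha6 had none in any library.

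The EphB receptors, which bind B-type ephrins, kept more of their level, 146.1 ± 3.54 TPM in preadipocytes and 29.2 ± 2.24 TPM in adipocytes (SD, n = 3). Ephb4 (ENSMUSG00000029710.15, chr5:137350109-137378669), the receptor of Efnb2 that marks venous endothelium, measured 171, 154 and 157 CPM in preadipocyte and 63.8, 56.3 and 52.5 CPM in adipocyte libraries and was 2.79-fold lower (adjusted p = 8.04e-07). Ephb3 measured 113, 102 and 105 CPM in preadipocyte and 17.1, 14.4 and 15.4 CPM in adipocyte libraries and was 6.82-fold lower (adjusted p = 1.93e-08). Ephb2 measured 53.2, 50.3 and 55.0 CPM in preadipocyte and 23.0, 20.3 and 20.0 CPM in adipocyte libraries and fell by 1.32 (SE 0.087, adjusted p = 1.16e-06). No adipocyte library reached the preadipocyte range for any of the 3. Ephb6, which lacks kinase activity, measured 5.64, 4.94 and 5.55 CPM in preadipocyte and 1.43, 1.54 and 1.04 CPM in adipocyte libraries and fell by 2.01 (SE 0.18, adjusted p = 9.76e-06). Ephb1 had 0 counts in all 6 libraries. By mean TPM the order Ephb4, Ephb3, Ephb2, Ephb6 was the same in both states, although Ephb3 (5.61 ± 0.63) and Ephb2 (5.20 ± 0.36) lay within their spread in adipocytes (SD, n = 3).

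**Figure D3:**
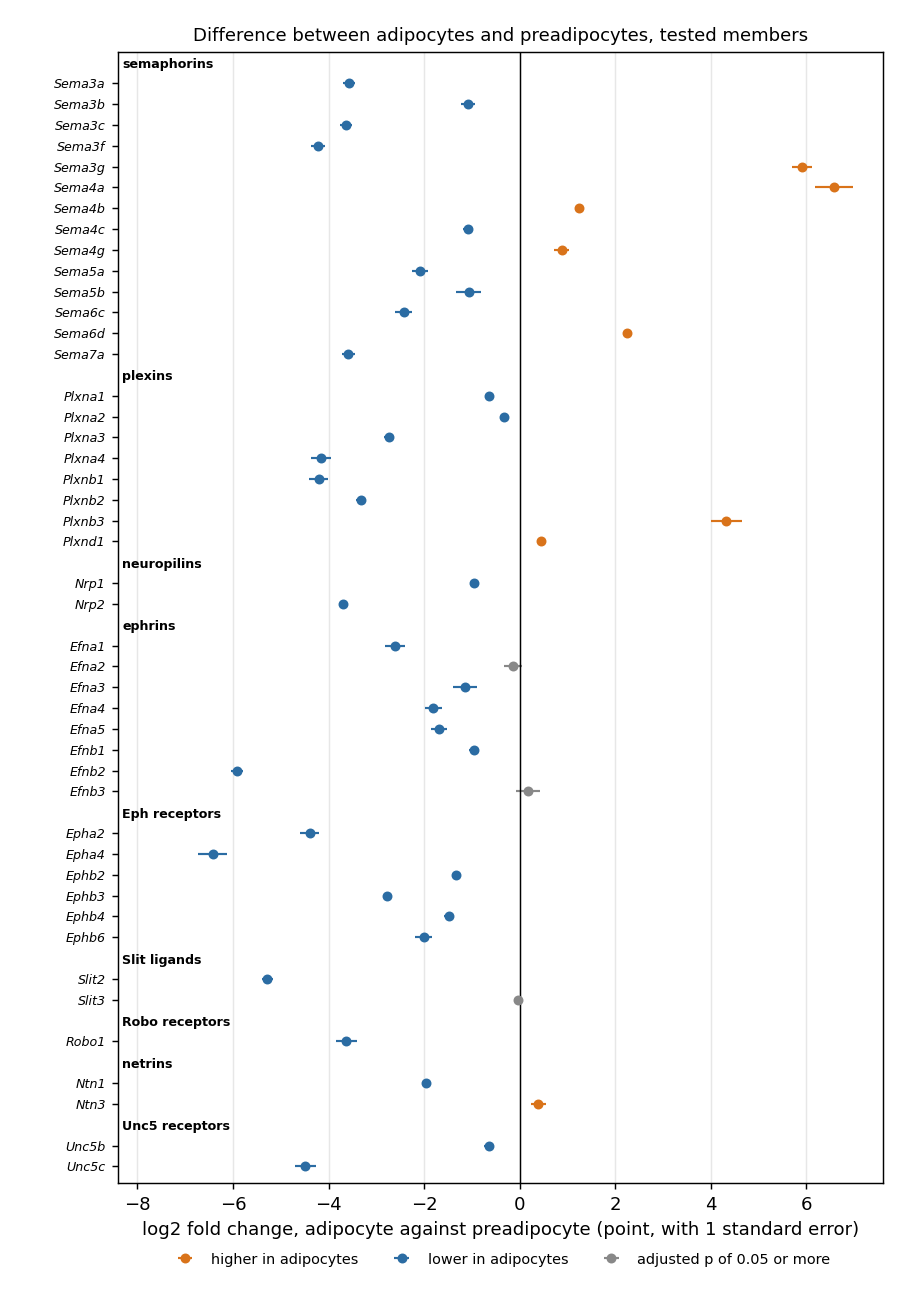
Fitted log2 fold change of each tested guidance gene, adipocyte against preadipocyte, with 1 standard error from the edgeR fit; orange is called higher, blue called lower and grey not called. Falls reach -6.43 for Epha4 and rises 6.58 for Sema4a, both of which passed the count limit in 1 state alone. The Sema4a value also depends on the prior count of the tool. Among members that reached the limit in both states, the ends are Efnb2 (-5.92) and Sema3g (5.91). The signs of Plxnd1 and Ntn3 turn with limma on log2(TPM + 1), and that of Efnb3 also with total counts. For Slit3 the sign turns under RLE factors, DESeq2, no filter or without single libraries.

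The Slit ligands parted. Slit2 (ENSMUSG00000031558.15, chr5:47983138-48307733) measured 220.2, 263 and 253 CPM in preadipocyte and 5.66, 7.10 and 6.23 CPM in adipocyte libraries, 38.8-fold lower in adipocytes (log2 fold change -5.28, SE 0.12, adjusted p = 3.22e-09). Slit3 (ENSMUSG00000056427.10, chr11:35121224-35708507) measured 135, 125 and 129 CPM in preadipocyte and 141, 123 and 117 CPM in adipocyte libraries, and these ranges overlapped. The log2 fold change of Slit3 was -0.028 (95% interval -0.23 to 0.17, adjusted p = 0.78), but total counts called it lower (-0.36, adjusted p = 0.0034), as did limma on log2(TPM + 1) (-0.54, adjusted p = 0.00027). In share of Slit TPM, Slit2 went from 59.7% ± 1.67 to 5.37% ± 1.83, and Slit3 from 40.3% ± 1.65 to 94.6% ± 1.85 (SD, n = 3). Slit3, at 31.9 ± 2.36 TPM (SD, n = 3), was the third most abundant of all 68 members in adipocytes, after Plxnd1 and Plxna1. Slit1 had 7 and 6 counts over the libraries of the 2 states.

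Robo receptors, which bind Slit, were scarce in both states. Robo1 was the only one tested, and passed the count limit in preadipocytes alone, so its difference follows from how it was kept. It measured 4.58, 5.33 and 5.05 CPM in preadipocyte and 0.346, 0.327 and 0.519 CPM in adipocyte libraries, 12.4-fold lower in adipocytes (SE 0.22 on the log2 scale, adjusted p = 6.00e-07). Robo2 and Robo4, the latter an endothelial form, had 0 counts in all libraries, which allows up to 0.0383 CPM in preadipocytes and 0.0443 CPM in adipocytes. Robo3 had 7 preadipocyte counts and none in adipocytes. The summed Robo level was 1.68 ± 0.14 TPM in preadipocytes and 0.203 ± 0.117 TPM in adipocytes, beside 116.4 ± 4.06 and 33.8 ± 2.27 TPM of Slit (SD, n = 3).

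Of the netrins, Ntn1 (ENSMUSG00000020902.12, chr11:68209364-68400823) made up most of the level. It measured 194, 178 and 182 CPM in preadipocyte and 52.2, 47.8 and 43.1 CPM in adipocyte libraries and was 3.87-fold lower (log2 fold change -1.95, SE 0.089, adjusted p = 1.14e-07). Ntn3 measured 5.91, 4.82 and 5.95 CPM in preadipocyte and 7.57, 6.17 and 8.13 CPM in adipocyte libraries and was called higher by a narrow margin (log2 fold change 0.39, SE 0.15, adjusted p = 0.043). That call was lost without any single library other than adipocyte library 2, with adjusted p from 0.050 to 0.15, and the sign turned with limma on log2(TPM + 1) (-0.20, adjusted p = 0.31). Ntn4 and Ntn5 had at most 13 counts over the libraries of a state. Unc5c, a repulsive netrin receptor, measured 56.8, 82.6 and 77.1 CPM in preadipocyte and 2.59, 4.44 and 2.68 CPM in adipocyte libraries and was 22.4-fold lower (adjusted p = 2.04e-07). Unc5b measured 23.3, 22.4 and 21.2 CPM in preadipocyte and 15.8, 14.6 and 12.7 CPM in adipocyte libraries and fell by 0.63 (SE 0.11, adjusted p = 5.41e-04). In share of Unc5 TPM, Unc5b thus went from 29.9% ± 4.14 to 86.4% ± 1.66 (SD, n = 3), and Unc5a and Unc5d had 0 counts in every library.

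**Figure D4:**
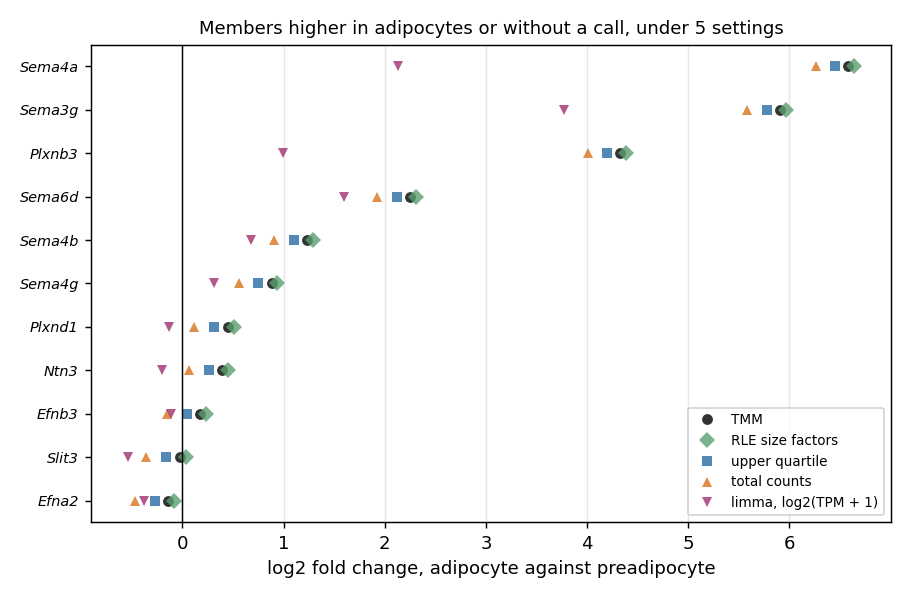
Log2 fold change, adipocyte against preadipocyte, of the 8 members called higher and the 3 without a call, under 5 settings, of which limma on log2(TPM + 1) also changes the unit and the test. Sema4a, Sema3g, Plxnb3, Sema6d, Sema4b and Sema4g stay above 0 under all 5, while Plxnd1, Ntn3, Efnb3 and Slit3 lie on both sides of 0; values on log2(TPM + 1) are smaller for low genes because of the added 1.

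Ranking all members by mean TPM gave different leaders in the 2 states. In preadipocytes Plxna1, Plxnd1 and Plxnb2 were followed by Sema3a (115.4 ± 11.7 TPM), Sema3c (87.4 ± 12.4), Ephb4 (72.2 ± 1.70), Nrp1 (70.6 ± 3.01), Sema3f (70.4 ± 1.67), Slit2 (69.5 ± 4.26) and Ntn1 (66.8 ± 1.86) (SD, n = 3). Neighbours from Ephb4 to Ntn1 in that order do not differ beyond their spread. In adipocytes Plxnd1, Plxna1 and Slit3 were followed by Nrp1 (25.3 ± 1.98 TPM), Sema6d, Sema3g, Sema4b, Ephb4 (17.8 ± 1.45), Ntn1 (12.2 ± 1.26) and Plxnb2 (8.59 ± 0.63) (SD, n = 3). Ligands summed to 669.5 ± 33.5 and 169.9 ± 8.94 TPM, and receptors to 765.1 ± 31.1 and 263.9 ± 12.4 TPM, in preadipocytes and adipocytes (SD, n = 3). Among tested ligands 17 were lower, 6 higher and 3 without a call, and among tested receptors 17 were lower and 2 higher. Over all tested genes 37.9% were lower and 35.7% higher. Sema4a and Sema5b among these ligands passed the count limit in 1 state alone. So did Plxnb1, Plxnb3, Epha4 and Robo1 among the receptors, and Plxna4 before TMM factors.

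Partners and effectors of these families outside the 68 members were taken from a list of 70 genes. Of its 56 tested genes, 33 were lower and 16 higher, with a median log2 fold change of -0.44, beside 37.9% lower, 35.7% higher and a median of -0.06 over all tested genes. Among other receptors and co-receptors, 5 were lower and 4 higher of 9 tested. Flrt2, a membrane ligand of Unc5 receptors, went from 39.9, 51.0 and 52.3 CPM to 2.12, 2.29 and 2.99 CPM and fell by 4.27 (SE 0.17, adjusted p = 4.26e-08), and the heparan sulfate carrier Gpc1 went from 108, 99.5 and 101 CPM to 20.5, 19.3 and 16.8 CPM (adjusted p = 4.25e-08). Eva1c, a Slit-binding receptor, went from 1.72, 1.501 and 1.52 CPM to 6.36, 5.42 and 5.06 CPM (adjusted p = 8.39e-06), and Met, a receptor kinase that associates with B-type plexins, went from 65.2, 74.4 and 75.6 CPM to 147, 176 and 187 CPM (adjusted p = 7.53e-06). Dcc, the classical attractive netrin receptor, had 0 counts in all libraries.

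Other ligands and shedding proteases were lower in 8 and higher in 2 of 10 tested genes. Vegfa, which binds neuropilins, rose while both neuropilins fell, and went from 56.0, 47.7 and 48.6 CPM to 545, 518 and 572 CPM (log2 fold change 3.42, SE 0.096, adjusted p = 7.62e-09). Its relative Vegfc went from 35.7, 35.6 and 33.7 CPM to 5.32, 3.88 and 3.94 CPM (adjusted p = 8.83e-08). Rgma, a ligand of neogenin, went from 80.4, 64.2 and 71.5 CPM to 141, 110.5 and 119.8 CPM (adjusted p = 2.60e-04), but was not called with limma on log2(TPM + 1) (0.22, adjusted p = 0.061). The membrane protease Mmp14 went from 1178, 1011 and 1048 CPM to 161, 152 and 111 CPM (adjusted p = 2.06e-07). Of the 37 tested cytoplasmic effectors, 20 were lower, 10 higher and 7 without a call. With the replicate block, 2 of those 7 were called, Arhgef12 at 0.16 (adjusted p = 0.0089) and Vav2 at -0.17 (adjusted p = 0.020) on the log2 scale. Dpysl3, a collapsin response mediator protein, went from 165, 174 and 174 CPM to 5.66, 6.87 and 5.62 CPM and fell by 4.82 (SE 0.10, adjusted p = 2.57e-09), and the exchange factor Arhgef19 went from 15.5, 11.9 and 13.1 CPM to 0.562, 0.888 and 0.476 CPM (adjusted p = 1.95e-07). Mical3, of a family of actin-oxidising enzymes downstream of plexins, went from 50.1, 53.8 and 52.9 CPM to 188, 193 and 199 CPM (adjusted p = 3.51e-08). The small GTPase gene Rras, a substrate of the plexin GAP domain, went from 40.6, 30.9 and 30.4 CPM to 139.7, 116 and 106 CPM (adjusted p = 4.02e-06). These 12 genes were named for the size of their change.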

How the data were processed

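The authors deposited 1 table per library. Per the file headers, it holds expected counts, TPM and effective lengths per gene. RSEM, DESeq2, Bowtie and Bowtie2, and the builds GRCm38 and mm10, are named without version or role, per the submitters' processing notes. The deposited expected counts share out reads that match several genes: 13 of the 68 members had a count that was not whole within 0.01 in some library. The deposited TPM is scaled within each library without TMM factors, so TPM sums and means can differ between states otherwise than CPM does. The deposited effective length is another value, used only as an offset.

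Identifiers without version were matched to GENCODE M21 (54723 of 54752). The members and lists were chosen with earlier results of these data known. Expected counts were rounded. Genes were kept by filterByExpr of edgeR 4.0.16 (R 4.3.3), with a limit of 0.414 CPM, before TMM factors, in 3 libraries. They were tested by the quasi-likelihood F-test with TMM factors (1.11 to 1.13 in preadipocyte, 0.88 to 0.90 in adipocyte libraries). Group was the only term. Adjusted p are Benjamini-Hochberg over all 14726 genes. Standard errors are the fitted log2 fold change over the root of F. Floors are 3 counts summed over a group and cover counting error only. On simulated counts for this comparison over 14726 genes, 76 of 100 genes changed 2-fold and 96 of 100 changed 4-fold were recovered. Another 14 genes were called falsely. All other genes were drawn from their preadipocyte mean in both groups, and as many changed genes rose as fell. In the data 73.5% of tested genes were called, so these rates need not hold there. Named were all members with at least 1 CPM that were called at 2-fold or more, the most abundant of each family, and the 2 leading rises and falls of each linked list with at least 5 CPM. Other members and genes were named after their values were seen. Alternatives were RLE, upper-quartile or no factors, DESeq2 1.42.0, limma 3.58.1 on log2(TPM + 1), no filter, an effective length offset, the replicate block and each library left out.

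Pairing was checked because both groups are numbered 1 to 3. Deviations from group means in log2(CPM + 1) correlated across genes at 0.66, 0.30 and 0.27 for numbers 1, 2 and 3, all above the limit of 0.1. A fit with the replicate block was therefore run as an alternative. The main fit left the numbers out, and so did every p-value given without naming the replicate block. Pairs of unlike number ran from -0.57 to 0.45, and preadipocyte 2 with adipocyte 3 (0.45) exceeded the values of numbers 2 and 3, so the pairing by number is not clear-cut. No 2 libraries of a group agreed within counting noise (chi-square per degree of freedom 2.96 to 38.6). Preadipocyte 2 and 3 were by far the closest pair (2.96), and every other pair lay at 15.49 or above.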

Additional observations from a re-analysis of the deposited data

How the results depend on the processing

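Of the 45 tested members, 37 kept their direction and call under all 14 alternatives, and the other 8 were Sema4g, Sema5b, Plxnd1, Efna2, Efna3, Efnb3, Slit3 and Ntn3. Members called lower ran from 32 to 37 over the alternatives, the latter among 61 tested with no filter, and members called higher from 5 to 8. With limma on log2(TPM + 1), which changes unit and test together, 5 members, 10 linked genes and 3266 of all genes were higher, and the cause was not tested. Relative to TMM, the median log2 fold change of all genes moved by -0.13 (upper-quartile factors), -0.33 (library totals) and -0.48 (limma). Signs turned for Plxnd1 (-0.14) and Ntn3 (-0.20) with limma on log2(TPM + 1), for Efnb3 with limma (-0.12) and total counts (-0.15), and for Slit3 with DESeq2 and RLE factors (0.032 each) and with no filter (0.042). With single libraries left out, Slit3 ran from -0.095 to 0.089, and it turned without adipocyte replicate 2 (0.035), adipocyte replicate 3 (0.089) or preadipocyte replicate 1 (0.0019). With the replicate block, 34 members were lower, 8 higher, and 5763 of all genes were higher and 6212 lower, and the block changed no call of a member. Linked genes were then 17 higher and 34 lower, against 16 and 33. Single libraries left out gave 34 lower and 7 to 8 higher members. At library totals of 22496486 to 26314076 counts, 23 members were below the count limit.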
